A study of Mus musculus with 20 samples.

Results

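The keratin genes Krt5, Krt7, Krt8, Krt14, Krt18 and Krt19 were followed across all libraries of the series. They were taken by name, as markers of the luminal and basal layers of the mammary gland, with earlier results of these data known. They are 6 of the 52783 genes in the count table. RNA was sequenced from 66cl4 and 67NR tumours, grown from mouse mammary carcinoma lines of which 66cl4 spreads to distant organs and 67NR does not. Viable cells of each tumour were sorted by CD45, the surface protein of leukocytes encoded by Ptprc, into a CD45+ and a CD45- library. Each of the 4 groups held 5 animals, giving 20 libraries from 10 mice. The mice were female BALB/cJ, 8 to 12 weeks old, and received 1000000 cells of a single line into the inguinal mammary fat pad. Tumours were taken 21 to 26 days later, and mice without a tumour were not among the groups. Each tumour type stands for a single transplanted line. The CD45- gate took every viable cell without the marker, so host stroma was sorted together with tumour cells.

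Keratins are the intermediate filaments of epithelial cells. A filament is built from pairs of a type I and a type II chain, and a chain without a partner is usually degraded. In the mammary gland, luminal cells are known for Krt8 (type II) with Krt18 and Krt19 (type I), and Krt7 (type II) also marks simple epithelia. Basal myoepithelial cells are known for Krt5 (type II) with Krt14 (type I). Loss of keratins with gain of vimentin is a textbook feature of epithelial cells that take on a mesenchymal state.

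Library totals lay between 12960000 and 28080314 estimated counts. Ptprc was higher in the CD45+ library of all 10 animals, by 33.6-fold to 1932-fold. The cell type recorded for animals 5 and 6 of 66cl4 goes against the sample title. They were grouped by title, and leaving both animals out changed no call for a keratin. Leukocyte RNA was low but unequal in the CD45- libraries. Summed over 12 leukocyte genes it had a median of 547 normalised counts in 66cl4 and 2195 in 67NR, against 205158 and 172296 in the CD45+ libraries. Normalised counts are counts divided by a size factor for each library.

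In CD45- cells, Krt8 and Krt18 were far higher in 66cl4 than in 67NR tumours, whereas Krt19, Krt7, Krt14 and Krt5 were low in both and did not pass the test. Krt8 averaged 5353 ± 273 normalised counts in 66cl4 and 61.6 ± 30.1 in 67NR (SD, n = 5 each), an 86.9-fold difference. Krt18 averaged 1149 ± 125 and 58.6 ± 41.0, a 19.6-fold difference. A gene was called when its adjusted p-value was under 0.05 and its absolute log2 fold change over 1. Of the 4 keratins with enough counts to be tested, 2 were called, against 32.2% of the 14844 genes tested. Both were called higher in 66cl4, as were 13.2% of the genes tested. In these bulk libraries, fewer cells of a type and less RNA per cell cannot be told apart.

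In CD45- cells of 66cl4 tumours, Krt8 stood at 5354, 5484, 5575, 5465 and 4886 normalised counts in animals 3, 4, 5, 6 and 7. In 67NR tumours it stood at 44.8, 31.5, 70.2, 109 and 52.2 in animals 1, 4, 5, 6 and 7. The groups did not overlap, and the lowest 66cl4 library was far above the highest 67NR library. The log2 fold change was 6.47 (SE 0.27, adjusted p = 9.41e-10, quasi-likelihood test of edgeR), the 98th highest among the genes tested. Krt18, the usual type I partner of Krt8, stood at 989, 1248, 1093, 1300 and 1113 normalised counts in the 66cl4 libraries in the same order. In the 67NR libraries it stood at 49.1, 21.01, 43.9, 129 and 50.1. Again the groups did not overlap. Its log2 fold change was 4.32 (SE 0.38, adjusted p = 2.34e-06 by edgeR), the 275th highest.

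**Figure D1:**
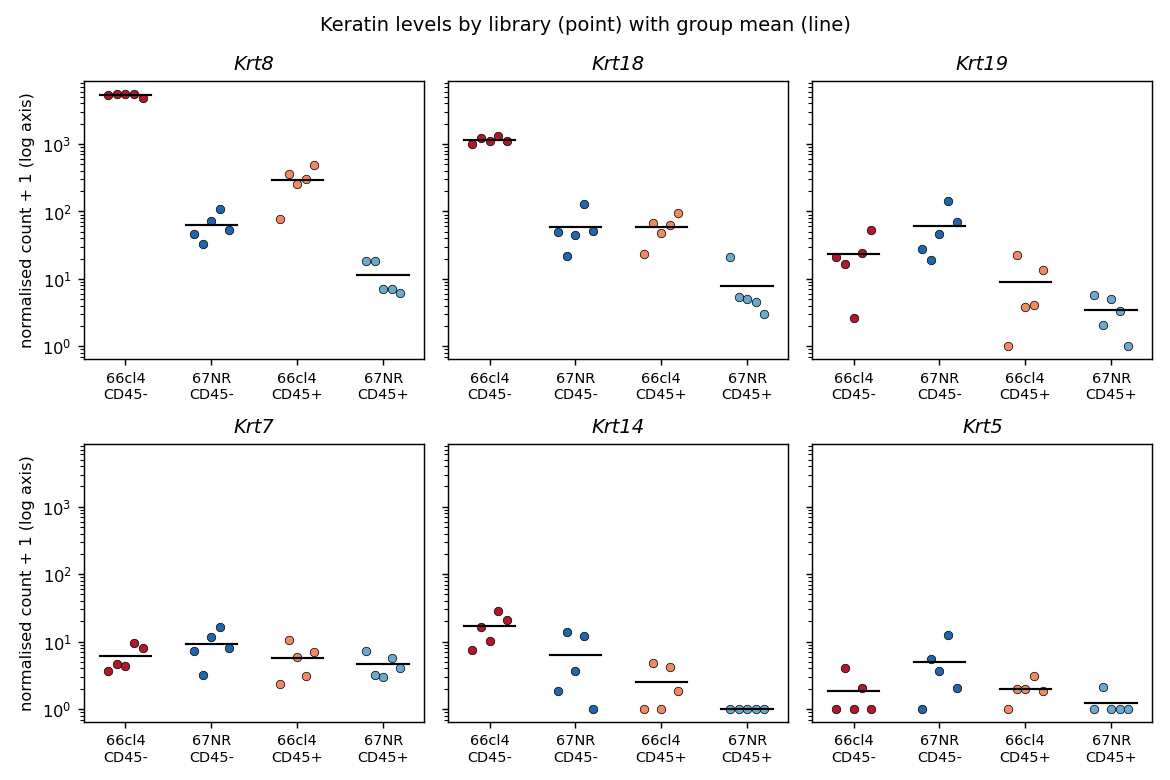
Level of each keratin in the 20 libraries, as normalised count + 1 on a log axis, by tumour and gate; each point is an animal and each line a group mean. Krt8 and Krt18 in 66cl4 CD45- cells lie above every other library, while Krt7, Krt14 and Krt5 stay low in all 4 groups.

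Krt8 and Krt18 are neighbours on chromosome 15, where Krt18 is a type I gene placed at the edge of the type II cluster. The next genes beyond Krt18 were Eif4b, a translation initiation factor, and Tns2, an adhesion protein. In CD45- cells their log2 fold changes were -0.08 (adjusted p = 0.393) and -0.26 (adjusted p = 0.119), and neither was called. On the other side, Krt78 and Krt79 were at or near 0 in CD45- cells of both tumours, with at most 0.312 normalised counts on average. Since both genes moved together, their promoters are shown. The windows run from 250 bases before to 50 bases after the annotated start and are RefSeq sequences of build GRCm38.p6, read 5′ to 3′ on the strand of each gene. The Krt8 window is chr15:102004293-102004592, minus strand, and the Krt18 window is chr15:102027966-102028265, plus strand. Capitals mark the motifs searched.
Krt8: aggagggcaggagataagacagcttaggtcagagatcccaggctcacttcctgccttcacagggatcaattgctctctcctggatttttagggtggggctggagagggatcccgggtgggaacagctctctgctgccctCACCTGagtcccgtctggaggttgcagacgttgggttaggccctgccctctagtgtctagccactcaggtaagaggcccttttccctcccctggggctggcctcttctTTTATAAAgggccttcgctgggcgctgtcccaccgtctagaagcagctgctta
Krt18: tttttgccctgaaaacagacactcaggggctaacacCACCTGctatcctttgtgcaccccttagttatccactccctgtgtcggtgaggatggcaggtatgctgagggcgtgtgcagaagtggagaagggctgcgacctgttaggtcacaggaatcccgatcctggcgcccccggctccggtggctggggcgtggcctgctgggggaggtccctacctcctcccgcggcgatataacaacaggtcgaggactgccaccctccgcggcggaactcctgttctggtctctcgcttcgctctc
The motifs were the GC box GGGCGG, the TATA motif TATAAA, the AP-1 motif TGANTCA and the E-box CACCTG, each on both strands. Both windows hold 1 E-box, at position -111 from the start in Krt8 and at -214 in Krt18. Of 32851 promoter windows of this length, 20.2% hold that E-box. The Krt8 window also holds TATAAA at position -1, overlapping a match on the other strand at -3. The Krt18 window holds no TATAAA, which 13.6% of windows hold. Neither window holds a GC box or an AP-1 motif, which 35.7% and 7.81% of windows hold.

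The other 4 keratins were sparse. Krt19, the type I keratin without a tail domain, stood at 19.9, 15.6, 1.66, 23.4 and 52.9 normalised counts in 66cl4 CD45- cells. In 67NR it stood at 26.3, 18.01, 44.8, 142 and 68.5. The groups overlapped. Its log2 fold change was -1.39 (SE 0.71, adjusted p = 0.106 by edgeR), which missed the threshold but passed without 66cl4 animal 7 (-1.97, adjusted p = 0.0335). Krt14, the type I keratin of basal cells, stood at 6.64, 15.6, 9.16, 27.6 and 19.96 normalised counts in 66cl4. In 67NR it stood at 0.877, 12.8, 2.63, 10.9 and 0, and the groups overlapped here too. Its log2 fold change of 1.49 (SE 0.65, adjusted p = 0.0596 by edgeR) missed the threshold. It passed without 66cl4 animal 3 (1.68, adjusted p = 0.0470), without 67NR animal 4 (2.05, adjusted p = 0.0216) and without 67NR animal 6 (1.87, adjusted p = 0.0410).

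Krt5 and Krt7 had too few counts for the fit. Krt5, the type II partner of Krt14, reached at most 5 counts in a 66cl4 CD45- library and 15 in a 67NR one. It was at 0 in 3 of the 66cl4 and 1 of the 67NR libraries. Krt7 held 2 to 8 counts in 66cl4 and 3 to 20 in 67NR. Exact two-sided permutation tests of the mean levels gave p = 0.190 for Krt5 and p = 0.238 for Krt7, or 0.327 and 0.357 after adjustment over the 12 such tests. The basal pair Krt5 and Krt14 thus held few counts in both tumours, 0 to 26 in a CD45- library.

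**Figure D2:**
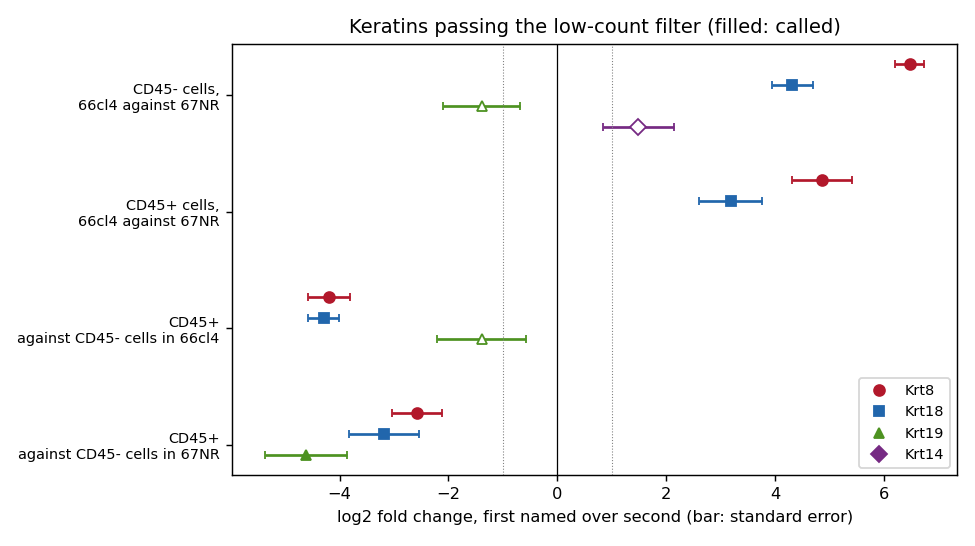
Log2 fold change of each keratin that passed the low-count filter, with its standard error as bar, in the 4 comparisons; filled symbols were called, and dotted lines mark a log2 fold change of 1 in either direction. Krt8 and Krt18 were called in every comparison, and Krt19 in 67NR between the gates alone. Krt19 did not pass the filter in CD45+ cells between the tumours. Krt14 passed it only in CD45- cells between the tumours, and was not called there.

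The make-up of the keratins differed between the tumours. Levels of different genes were compared as TPM, a measure of transcript abundance that divides counts by transcript length and scales each library to the same total. In 66cl4 CD45- cells the order was Krt8 at 243 ± 15.8 TPM, Krt18 at 71.0 ± 5.48, Krt19 at 1.28 ± 1.11, Krt14 at 0.816 ± 0.403, Krt7 at 0.108 ± 0.0514 and Krt5 at 0.0327 ± 0.0538 (SD, n = 5). Krt8 and Krt18 were separated by more than their spread, whereas Krt19 and Krt14 overlapped, as did Krt7 and Krt5. By TPM, Krt8 ranked 347th of 51492 genes in this group. In 67NR CD45- cells Krt18 stood at 3.54 ± 2.72 TPM, Krt19 at 3.33 ± 2.99 and Krt8 at 2.71 ± 1.45. These levels did not differ beyond their spread. Krt8 ranked 10385th there. Krt14, Krt7 and Krt5 followed at 0.293 ± 0.334, 0.174 ± 0.113 and 0.164 ± 0.198 TPM, again without separation.

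Krt8 took 74.8 to 79.5% of the TPM of the 6 keratins in the 66cl4 CD45- libraries and 22.2 to 35.8% in the 67NR ones. Krt19 took 0.0292 to 1.01% and 21.9 to 40.6%, so the ranges of both shares were separate. A share also depends on the levels of the other keratins, here mainly Krt8 and Krt18. The level of Krt19 itself overlapped, at 0.0995 to 3.11 TPM in 66cl4 and 1.08 to 8.33 in 67NR CD45- libraries. The type II chains (Krt5, Krt7, Krt8) together exceeded the type I chains (Krt14, Krt18, Krt19) in every 66cl4 CD45- library, with ratios of 3.88, 3.16, 3.71, 2.99 and 3.05. In 67NR they fell below them in every library, with ratios of 0.474, 0.557, 0.655, 0.349 and 0.368. The geometric means of 3.34 and 0.467 differed 7.15-fold (exact two-sided permutation test of the log2 ratios, p = 0.00794, the smallest p that 5 against 5 libraries allow). For Krt8 over Krt18 alone the geometric means were 3.43 and 0.837 (p = 0.00794, exact permutation test). In the 67NR libraries Krt8 over Krt18 ran from 0.623 to 1.17, so it was not below 1 in every library. The type II to type I ratio covers only the 6 keratins. Krt80 and Krt10, which averaged 117 and 81.5 normalised counts in 67NR CD45- cells, did not enter it. Whether the 67NR ratio would stay below 1 with these genes included was not tested. The ratio is that of RNA and not of protein. In CD45+ cells it was 2.50 to 3.82 in 66cl4 and 0.602 to 2.67 in 67NR, where each library held at most 16 counts of Krt8 and 13 of Krt18. The ranges overlapped, and the geometric means were 3.17 and 1.22 (exact two-sided permutation test, p = 0.0159). With median transcript lengths in place of the longest coding ones p was 0.206 (exact permutation test). Both tests in CD45+ cells were added after the data were seen.

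**Figure D3:**
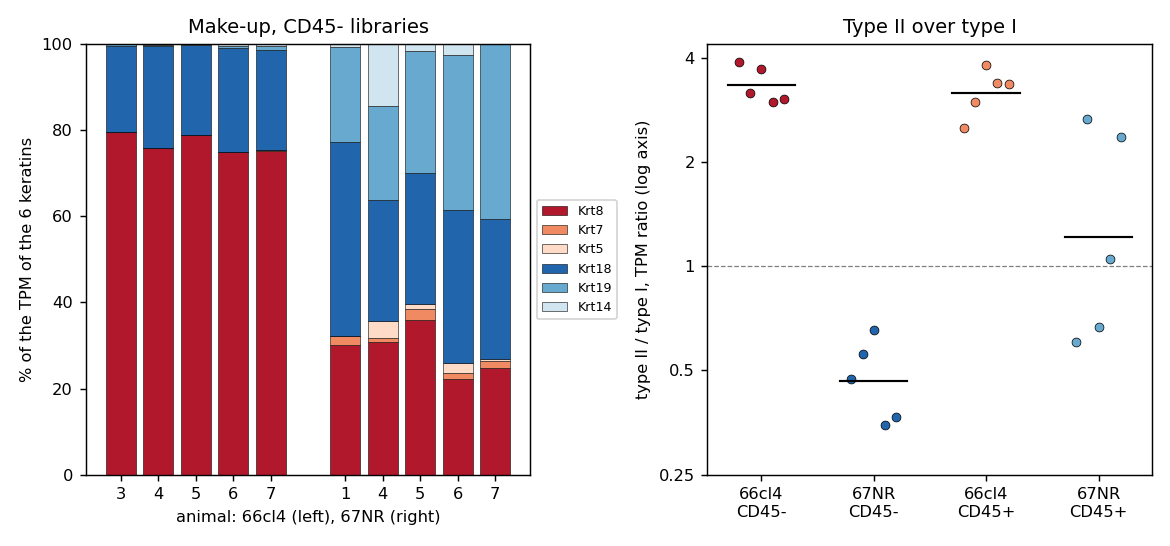
Left, share of each keratin in the summed TPM of the 6 keratins in each CD45- library, 66cl4 animals on the left and 67NR animals on the right; right, ratio of type II to type I TPM in all 20 libraries on a log axis, with the geometric mean of each group as a line. The 66cl4 CD45- libraries are mostly Krt8 and lie above a ratio of 1, and the 67NR CD45- libraries lie below it.

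In CD45+ cells Krt8 and Krt18 were again higher in 66cl4, at a lower level. Krt8 averaged 296 ± 150 normalised counts in 66cl4 and 10.4 ± 6.38 in 67NR (SD, n = 5 each). Krt18 averaged 58.4 ± 26.6 and 6.88 ± 7.55. Both of the 2 keratins tested were called, against 11.8% of 14676 genes, and against 5.01% called higher in 66cl4. Krt8 stood at 75.1, 359, 256, 303 and 485 in the 66cl4 CD45+ libraries of animals 3, 4, 5, 6 and 7. In the 67NR libraries of animals 1, 4, 5, 6 and 7 it stood at 17.2, 17.6, 6.10, 5.99 and 5.14. The groups did not overlap, and 66cl4 animal 3 was the lowest of its group. The log2 fold change was 4.87 (SE 0.55, adjusted p = 0.00027 by edgeR), the 17th highest of all genes tested. Krt18 stood at 22.3, 66.9, 47.2, 61.0 and 94.7 in 66cl4 and at 20.3, 4.40, 4.07, 3.59 and 2.06 in 67NR. The groups were separate, although 67NR animal 1 came close to 66cl4 animal 3. The log2 fold change was 3.18 (SE 0.58, adjusted p = 0.00277 by edgeR). Krt19, Krt7, Krt14 and Krt5 were filtered out. Their exact permutation p-values were 0.286, 0.595, 0.167 and 0.167, or 0.381, 0.714, 0.327 and 0.327 after adjustment.

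Between the gates of a tumour, Krt8 and Krt18 fell from CD45- to CD45+ cells in both tumours. These fits left out the pairing of the gates by animal. The same keratins were called with the animal as replicate block. In 66cl4 the log2 fold changes were -4.19 for Krt8 (SE 0.38, adjusted p = 1.09e-06 by edgeR) and -4.29 for Krt18 (SE 0.28, adjusted p = 5.83e-08), and the libraries of the gates did not overlap. Of the 3 keratins tested, 2 were called, against 44.4% of 14916 genes. Both were called lower in CD45+ cells, as were 20.5% of the genes tested. Krt19 had a log2 fold change of -1.39 (adjusted p = 0.144) and was not called. Krt14 held 0 to 4 counts in 66cl4 CD45+ libraries and 5 to 26 in CD45- ones. It was filtered out of the fit. Its exact permutation p was 0.00794, or 0.0952 after adjustment, and it was called with DESeq2, without the filter and with all 20 libraries in the fit (log2 fold changes of -3.27, -3.26 and -3.19).

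In 67NR, Krt19, Krt18 and Krt8 all fell, so 3 of the 3 keratins tested were called, against 39.8% of 15063 genes. Of the genes tested, 19.6% were called lower in CD45+ cells. Krt19 fell most, from 60.0 ± 49.9 to 2.45 ± 1.96 normalised counts (SD, n = 5), with a log2 fold change of -4.61 (SE 0.76, adjusted p = 0.000224 by edgeR), the 15th lowest of all genes tested. Its CD45+ values were 4.68, 1.10, 4.07, 2.40 and 0, all below the lowest CD45- library. For Krt18 the log2 fold change was -3.19 (SE 0.64, adjusted p = 0.000985) and for Krt8 it was -2.58 (SE 0.46, adjusted p = 0.000406). Krt14 was at 0 counts in all 5 CD45+ libraries of 67NR. In CD45- cells 1 library was also at 0, so the gates overlapped. Set against a floor of 3 counts per library, the CD45- mean was at least 1.54-fold higher. The exact permutation p was 0.0476 for Krt14 and 0.0873 for Krt5, or 0.262 for each after adjustment. Krt14 and Krt5 were called with DESeq2 (log2 fold changes of -4.64 and -3.61) and without the filter (-5.54 and -3.58). Krt14 was also called with all 20 libraries in the fit (-5.56, adjusted p = 0.00478 by edgeR). Neither gene was tested in the fit as reported.

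The tumour difference was then compared between the gates by an interaction over the 20 libraries, called on an adjusted p-value under 0.05 alone. This fit left out the pairing of the gates by animal. Of the 4 keratins tested 1 was called, against 43.1% of 16453 genes. This was Krt19, for which the log2 difference between tumours was 3.22 higher in CD45+ than in CD45- cells (SE 1.25, adjusted p = 0.0434 by edgeR). With the animal as replicate block it was 2.96 (adjusted p = 0.0544) and was not called. The call was also lost when a single library was left out, for 11 of the 20 libraries, with values of 2.39 to 3.23. These were the CD45- libraries of 66cl4 animals 3, 4, 5 and 6 and of 67NR animals 6 and 7, and the CD45+ libraries of 66cl4 animals 4 and 7 and of 67NR animals 4, 6 and 7. For Krt8 the interaction was -1.57 (adjusted p = 0.0611), and for Krt18 it was -1.05 (adjusted p = 0.279). For Krt14 it was 2.37 (adjusted p = 0.297). Krt8 was called with DESeq2 (-1.58, adjusted p = 0.0200), with a filter of 10 counts in 5 libraries (-1.67, adjusted p = 0.0453), and when the CD45+ library of 66cl4 animal 3, 4 or 7 or the CD45- library of 67NR animal 6 was left out.

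The keratin level of a CD45+ library was set beside that of the CD45- library from the same animal. In 66cl4, Krt8 in CD45+ cells was 1.40, 6.55, 4.60, 5.54 and 9.93% of its CD45- level in animals 3, 4, 5, 6 and 7. Krt18 was at 2.25, 5.36, 4.32, 4.69 and 8.51%. Over 10 fibroblast genes, which the CD45+ gate should lack, the median gene was at 2.10, 6.47, 7.59, 7.68 and 12.5% in the same animals. Animal 3 was lowest and animal 7 highest for all 3 measures. In 67NR, Krt8 was at 38.4, 55.8, 8.68, 5.48 and 9.86% in animals 1, 4, 5, 6 and 7. Krt18 was at 41.3, 20.9, 9.26, 2.79 and 4.11%, and the median fibroblast gene at 20.3, 22.9, 9.83, 4.75 and 5.72%. Animals 1 and 4 were highest for all 3. The part of CD45- cells or their RNA in the CD45+ keratin values was not tested. In the group means of 66cl4, 7 of the 10 fibroblast genes were at 4.03 to 8.81% of their CD45- level, and Dpt, Fap and Thy1 at 45.4, 122 and 736%. In 67NR, 8 were at 5.41 to 16.5%, and Fap and Thy1 at 46.9 and 746%. Thy1 is also a T cell gene. For 9 endothelial genes the median gene was at 71.4% in 66cl4, and at 12.9% in 67NR. By animal, in the same order, the median endothelial gene was at 69.9, 69.7, 135, 66.0 and 24.2% in 66cl4. In 67NR it was at 18.8, 9.30, 9.49, 8.52 and 17.3%. Animal 7 of 66cl4 was thus lowest and animal 5 highest, and animal 4 of 67NR was not high, unlike for the keratins. The endothelial list includes genes that leukocytes also express, such as Pecam1. Thy1 and Pecam1 were picked after their values were seen.

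**Figure D4:**
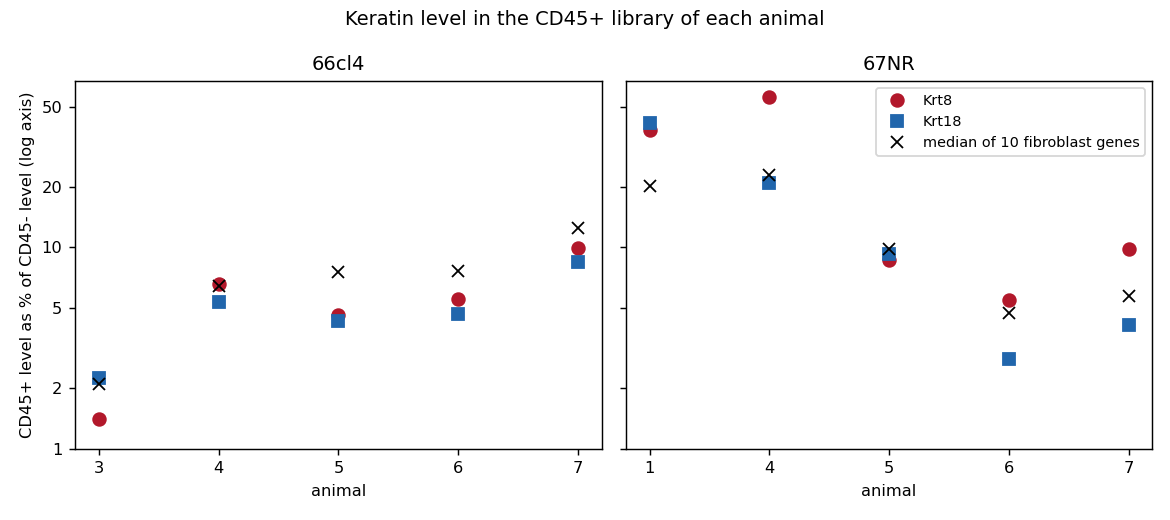
Level in the CD45+ library as percent of the level in the CD45- library of the same animal, on a log axis, for Krt8, Krt18 and the median of 10 fibroblast genes, by tumour. In 66cl4 the 3 measures are lowest in animal 3 and highest in animal 7, and in 67NR they are highest in animals 1 and 4.

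Among the 67NR CD45- libraries, animal 6 was the highest for 5 of the 6 keratins, all but Krt14. Its 6 keratins summed to 419 normalised counts, against 90.0 to 179 in the other 4 animals. It was also the highest of the 5 for 16 of 23 luminal genes and 7 of 12 basal genes. The same held for 4 of 10 fibroblast genes, 4 of 16 genes that attach keratins to cell junctions, and 4 of 48 other keratins, of which 15 were detected. It held for 0 of 9 endothelial genes, 1 of 12 leukocyte genes, 1 of 12 other intermediate filament genes and 1 of 8 keratinocyte differentiation genes. The share over all genes was not computed, so these counts have no background to be read against. For 16 genes that attach keratins to cell junctions, the sum was lowest in animal 6, at 9687 against 9879 to 12897. The luminal sum was 3984 in animal 6 and 3025 to 3973 in the others, and the basal sum 2409 and 1792 to 2657. The fibroblast sum was also highest in animal 6, at 22895 against 14664 to 21406, as was that of the keratinocyte differentiation genes, at 15.6 against 7.502 to 13.2. No luminal gene was at 0 in all 67NR CD45- libraries. Epcam, an epithelial adhesion molecule, stood at 65.6 in animal 6 and at 15.3 to 35.1 in the others. The part of these genes in the keratin values was not tested. Without this library, the log2 fold changes between the CD45- groups were 6.79 for Krt8 and 4.85 for Krt18, and both stayed called. That of Krt19 was -0.78 (adjusted p = 0.314) in place of -1.39. Between the gates of 67NR, Krt8, Krt18 and Krt19 were still called without it, with log2 fold changes of -2.25, -2.64 and -3.98.

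Across the 20 libraries, Krt8 and Krt18 rose and fell together (Pearson r = 0.970 of log2(CPM + 1), where CPM is the count scaled to a common library total). After the group means were removed the correlation was 0.849. Krt8 and Krt19 had r = 0.191, and Krt14 and Krt19 had r = 0.425. These are descriptions over libraries that share animals and fall into 4 groups. The genes most like Krt8 in pattern were Ptgds, a prostaglandin D synthase (r = 0.987), Prrx2, a homeobox factor of mesenchyme (r = 0.987), and Padi4, a peptidylarginine deiminase (r = 0.985). Ptgds averaged 1494 normalised counts in CD45- cells of 66cl4 against 9.18 in those of 67NR, and Prrx2 1825 against 15.1. Those most like Krt18 were Boc, a Hedgehog co-receptor (r = 0.987), Xlr3a (r = 0.985) and Scara5, a ferritin receptor (r = 0.984). For Krt19 they were Srpx (r = 0.944), Prlr, the prolactin receptor (r = 0.932), and Tmem56 (r = 0.915). Prlr averaged 56.9 and 132 in 66cl4 and 67NR CD45- cells, and 24.6 and 8.31 in the CD45+ cells. For Krt14 they were Gm11627 (r = 0.894), Gcnt3 (r = 0.890) and Dzip1l (r = 0.887).

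The other keratin genes were mostly silent. Of 48, only Krt10 and Krt80 passed the filter in each of the 4 comparisons of groups. A mean of at least 10 normalised counts was reached by 2 in each CD45- group. In CD45+ cells it was reached by 4 in 66cl4 and 3 in 67NR. Krt80, a type II keratin, was higher in the CD45+ gate. It averaged 39.4 ± 12.7 normalised counts in 66cl4 and 117 ± 42.9 in 67NR CD45- cells, and 568 ± 125 and 341 ± 35.4 in CD45+ cells (SD, n = 5). It was called lower in 66cl4 in CD45- cells (log2 fold change -1.55, SE 0.28, adjusted p = 0.000262 by edgeR). It was called higher in CD45+ than in CD45- cells of 66cl4 (3.83, adjusted p = 1.6e-08) and of 67NR (1.54, adjusted p = 0.000121). Its log2 tumour difference was 2.30 higher in CD45+ than in CD45- cells (adjusted p = 1.5e-05, unpaired edgeR interaction). Krt10, a keratin of stratified epithelium, averaged 81.5 in CD45- cells of 67NR and 30.9 in CD45+ cells, and was called lower in the latter (-1.39, adjusted p = 4.67e-05). Of 8 keratinocyte differentiation genes, 5 had no count in each of the CD45- groups, and the 1 that could be tested there was not called.

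The genes that attach keratins to desmosomes and hemidesmosomes split in CD45- cells. Of 16 such genes 9 were tested, of which 3 were called higher in 66cl4 and 3 lower. Over all genes tested, 13.2% were called higher and 18.9% lower. The median log2 fold change was -0.22, against -0.01 over all genes. Pkp2, a desmosomal plaque protein, averaged 472 normalised counts in 66cl4 and 12.2 in 67NR (log2 fold change 5.29, adjusted p = 3.46e-12 by edgeR). Itgb4, the hemidesmosome integrin chain that links to keratin through plectin, averaged 1033 and 72.3 (3.87, adjusted p = 1.51e-09). Ppl, a cytolinker of the plakin family, averaged 331 and 27.2 (3.64, adjusted p = 8.22e-10). Col17a1, the transmembrane collagen of hemidesmosomes, went the other way with 2.45 and 38.4 (-4.00, adjusted p = 8.55e-07). Dsp, the desmosomal protein that binds keratin filaments, averaged 3.17 and 6.14 and was not tested. It was picked after its values were seen.

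Other genes of the mammary luminal and basal layers did not move as a block with Krt8. Over all genes tested in CD45- cells, 13.2% were called higher in 66cl4 and 18.9% lower. Of 23 luminal genes 14 were tested, of which 5 were called higher in 66cl4 CD45- cells and 5 lower, with a median of -0.92. Cd24a, a surface marker of luminal cells and of several leukocytes, averaged 4423 normalised counts in 66cl4 and 95.9 in 67NR (5.55, adjusted p = 6.78e-09). Esr1, the oestrogen receptor, averaged 1103 and 82.97 (3.76, adjusted p = 1.23e-11), and Areg, an EGF receptor ligand, 276 and 20.7 (3.77, adjusted p = 1.41e-08). Tbx3, a transcription factor of mammary development, averaged 5.33 and 143 (-4.66, adjusted p = 1.5e-08). Epcam averaged 12.1 and 32.8 and was called lower in 66cl4 (-1.41, adjusted p = 0.0267), so this epithelial marker did not rise with Krt8. Of 12 basal genes 7 were tested, of which 1 was called higher in 66cl4 and 3 lower, with a median of -0.08. The higher gene was Trp63, the p63 factor of basal cells, at 415 and 8.84 (5.53, adjusted p = 8.69e-11). The lower genes were Snai2, a transcriptional repressor, at 115 and 1014 (-3.09, adjusted p = 6.94e-10), Myh11 and Acta2, the last 2 being contractile genes (-2.02 and -1.04). With DESeq2 or without the filter 7 basal genes were called in place of 4.

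Among the other intermediate filament genes, 7 of 12 were tested in CD45- cells. Of these, 3 were called lower in 66cl4 and 4 were not called (median -0.47). Over all genes tested there, 18.9% were called lower in 66cl4 and 13.2% higher. The 3 lower genes were Synm (-4.90, adjusted p = 5.09e-07 by edgeR), Des, the muscle filament desmin (-4.16, adjusted p = 5.32e-08), and Nes, nestin (-1.34, adjusted p = 2.85e-07). Vim, vimentin, averaged 40813 normalised counts in 66cl4 and 57660 in 67NR CD45- cells, with a log2 fold change of -0.47 (adjusted p = 0.00312) that was under the fold threshold. It was also picked after its values were seen. Genes of the fibroblast and endothelial lists differed between the same libraries, and which of the CD45- cells held their RNA was not tested. Of 10 fibroblast genes 1 was called higher in 66cl4 and 5 lower, with summed levels of 9578 to 15449 in 66cl4 and 14664 to 22895 in 67NR. Of 9 endothelial genes 8 were called lower in 66cl4, with sums of 530 to 1064 and 1127 to 4561. None of these genes was at 0 in a group, and the part of stromal cells in the keratin differences was not tested. The 4 adipocyte genes were not tested, and their sums did not exceed 2.99 in the CD45- libraries.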

How the data were processed

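RNA of CD45+ and CD45- cells sorted from 10 tumours was made into mRNA libraries and sequenced with single reads. The authors trimmed the reads with fastp, quantified transcripts with Salmon 1.3.0 and summed them to genes with tximport. The deposited table holds estimated counts for 52783 genes, without normalisation. The reference named is GRCh38, a human one, although the identifiers are of mouse, and the mouse build is not given in the sources used here. Where keratin sequences are alike, the estimation may have split reads between them. The pseudogene Krt8-ps averaged at most 0.758 normalised counts in a group.

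Estimated counts were rounded to whole numbers. Symbols matched 51492 identifiers. Samples were grouped by title. Groups were compared with edgeR 4.0.16 in R 4.3.3 (robust quasi-likelihood fit after TMM scaling and the default low-count filter, set at 10 counts and 15 in total, then Benjamini-Hochberg adjustment). The study's call thresholds were kept, an adjusted p-value of 0.05 and a log2 fold change of 1 in size. Some of the fits were run on simulated data with a single spread setting for all genes and unpaired libraries. Such data cannot show how the fits perform for sparse, variable keratins or paired gates. Levels are counts divided by size factors of DESeq2 1.42.0. TPM was computed with the longest coding transcript of each gene in GENCODE M21, and 1291 genes had no length. That of Krt7 is 4094 bases against a median of 690 over its transcripts, so its TPM is uncertain. A count of 0 allows up to 3 counts, or 1.07e-05 to 2.31e-05% of a library, for counting error only. Gates of an animal are paired since they come from the same tumour (correlations of deviations from -0.0219 to 0.382), whereas animals of different tumours share only numbers. The fits as reported left this pairing out, and the replicate block put it in. In comparisons between tumours the block joined unrelated animals by number.

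The keratins and gene lists were chosen with earlier results of these data known. Named genes are the keratins, other keratins called with a mean of at least 10 normalised counts in a group, up to 4 called genes per list with the largest log2 fold change in CD45- cells and such a mean, Ptprc, and the 3 genes with the highest Pearson correlation to each keratin with such a mean. The fibroblast, endothelial and leukocyte lists are given mainly as summaries. Epcam, Dsp, Vim, Thy1 and Pecam1, and the chromosomal neighbours of Krt8 and Krt18, were picked after their values were seen. Figures were drawn with matplotlib 3.10.9. Promoters came from RefSeq, with a window for 5 of the 6 keratins. Krt19 had none. The alternatives were DESeq2, RLE factors, no filter, 10 counts in 5 libraries, a replicate block, all 20 libraries in a fit, leaving out 66cl4 animals 5 and 6 or each library, and other scalings of the levels and ratios.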

Additional observations from a re-analysis of the deposited data

Results flagged for a closer look

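Krt18 in CD45- cells of 67NR animal 6 stood at 129 normalised counts, far from the other 4 animals at 21.01 to 50.1. Krt18 in CD45+ cells of 67NR animal 1 stood at 20.3, with the others at 2.06 to 4.40, and rests on 13 counts. In this animal the median fibroblast gene was also high in CD45+ cells, at 20.3% of its CD45- level. Krt5 in CD45+ cells of 67NR animal 4 stood at 1.10 with the others at 0, which is a single count. These 3 came out of 28 groups examined for a distant sample, where chance gives about 1 in 20, or 1.4.

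The tumour difference of Krt19 was called as different between the gates in the unpaired fit, and this call held in 13 of 26 alternatives. Its log2 value was 3.22 higher in CD45+ than in CD45- cells (adjusted p = 0.0434, edgeR interaction). Over its 26 alternatives the value was 2.39 to 3.80 and the adjusted p 0.0209 to 0.143. With the animal as replicate block it was 2.96 (adjusted p = 0.0544 by edgeR) and was not called. In CD45+ cells of 67NR, Krt19 rests on 0 to 4 counts in a library.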

How the results depend on the processing

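Krt8 and Krt18 kept their direction and their call in each comparison of 2 groups under every alternative, with log2 fold changes of 6.29 to 6.79 and 4.09 to 4.85 between the CD45- groups and of at least 4.61 and 2.92 between the CD45+ groups. No keratin value from the fits as reported changed sign. Krt5, which was filtered out of them, had a log2 fold change between the gates of 66cl4 of 0.14 with DESeq2 and -0.02 without the filter, and was called by neither. Between the gates of 67NR, 5 keratins were called with DESeq2 and 5 without the filter, in place of 3, since Krt14 and Krt5 then entered the test. With all 20 libraries in the fit 4 were called, since Krt14 then entered it. For the interaction, 2 keratins were called with DESeq2, 2 with 10 counts in 5 libraries, and 1 with edgeR as reported. With edgeR and no filter 0 were called, with 3 at an unadjusted p under 0.05. With edgeR and the replicate block 0 were called, with 2 at an unadjusted p under 0.05. Leaving out single libraries gave 0 to 2. The replicate block changed no other keratin call. The type II to type I ratio between the CD45- groups, a log2 difference of 2.84, was 2.04 for Krt8 over Krt18, 2.81 with normalised counts, and 2.96 with median transcript lengths. The last alternative was chosen after seeing the data, as was leaving 66cl4 animals 5 and 6 out of the ratio. Of the 3 genes nearest to a keratin by Pearson correlation, 1 was among the nearest 3 by Spearman correlation for Krt8, 1 for Krt18 and 0 for Krt14. Depth limits Krt5, Krt7 and Krt14, and in CD45+ cells of 67NR all 6 keratins, which held at most 16 counts in a library.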
